A study of Mus musculus with 3 samples.

Results

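The 10 genes described here belong to the nuclear receptor family and were measured in RNA bound to tagged ribosomes from mouse cerebral cortex. They are the thyroid hormone receptors Thra and Thrb, the orphan receptor Rora, the corticosteroid receptors Nr3c1 (glucocorticoid receptor) and Nr3c2 (mineralocorticoid receptor), the retinoid X receptors Rxra, Rxrb and Rxrg, and the orphan receptors Nr2f1 and Nr2f2, also called COUP-TFI and COUP-TFII. They were chosen by symbol, as 10 of the 32531 gene rows of the count tables, and all 10 symbols were found. The mice were untreated adults of strain C57BL/6J that carried the Kcnip2-EGFP/Rpl10a transgene (Kcnip2-TRAP NIDA115), and the tissue was their cortex. Translating ribosome affinity purification (TRAP) pulls down ribosomes that carry an EGFP-tagged ribosomal protein, together with their mRNA, from cells that express the transgene. Here the transgene is named for Kcnip2, which encodes an auxiliary subunit of Kv4 potassium channels, and Kcnip2 itself was at 164 ± 21.9 CPM (SD, n = 3). The 3 libraries form 1 group of immunopurified (IP) samples, replicates 1 to 3, and with no input library among them the values are levels within the precipitate, not enrichment. Separate animals are not stated in the labels, and p-values therefore cover the spread of these 3 libraries alone, technical or not.

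Nuclear receptors are transcription factors whose activity most often depends on a small fat-soluble ligand. A DNA-binding domain of paired zinc fingers reads a short element in the genome, and a ligand-binding domain exchanges corepressors for coactivators when a hormone binds. Corticosteroid receptors wait in the cytoplasm with HSP90 chaperones and bind DNA as homodimers. Thyroid hormone receptors sit on DNA with or without hormone, usually as heterodimers with a retinoid X receptor. The ROR and COUP-TF receptors are called orphans because no hormone is established for them, and COUP-TFs take part in the patterning of the cortex and in interneuron development.

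The first zinc finger shows how the 10 genes are related at the level of sequence. Each line below is the coding sequence, 5′ to 3′ on the sense strand, from the codon of the first zinc-binding cysteine to the end of the P box, the stretch that contacts the DNA element. Capitals mark the P box, and each run holds 69 bases from the GENCODE M21 transcripts on GRCm38, the assembly that mm10 names. The bases of the corticosteroid receptors are not shown. The set is shown because the P box takes part in reading the element and because close sequence bears on how reads of related genes can be told apart.
Thra: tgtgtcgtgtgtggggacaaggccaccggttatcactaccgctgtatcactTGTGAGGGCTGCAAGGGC
Thrb: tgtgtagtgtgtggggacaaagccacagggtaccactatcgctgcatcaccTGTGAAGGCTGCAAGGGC
Rora: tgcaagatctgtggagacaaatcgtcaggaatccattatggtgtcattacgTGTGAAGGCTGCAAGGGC
Rxra: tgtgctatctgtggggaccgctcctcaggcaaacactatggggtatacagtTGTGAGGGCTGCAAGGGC
Rxrb: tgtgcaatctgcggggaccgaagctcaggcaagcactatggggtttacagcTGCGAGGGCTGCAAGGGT
Rxrg: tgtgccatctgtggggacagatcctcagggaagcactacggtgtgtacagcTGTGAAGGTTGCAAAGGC
Nr2f1: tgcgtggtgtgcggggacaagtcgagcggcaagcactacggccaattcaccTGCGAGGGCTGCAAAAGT
Nr2f2: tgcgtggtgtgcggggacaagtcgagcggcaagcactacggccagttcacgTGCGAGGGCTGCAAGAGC

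The P box codes for the same amino acids in 6 of the 10 genes, which are both thyroid hormone receptors, Rora and the 3 retinoid X receptors. The 2 COUP-TF genes share another version, and the 2 corticosteroid receptors yet another. Which element each version reads was not tested, and a different version need not mean a different element. Within families, Nr2f1 and Nr2f2 were identical at 65 of 69 bases (94.2%), Thra and Thrb at 87% and Rxra and Rxrb at 85.5%. Rxra and Rxrg were identical at 82.6% of the bases, Rxrb and Rxrg at 79.7% and Nr3c1 and Nr3c2 at 76.8%. Over whole transcripts the longest identical run was 59 bases between Nr2f1 and Nr2f2, and 17 to 29 bases in the other 5 family pairs. The runs of Nr2f1 (chr13:78198259-78198327, minus strand) and Nr2f2 (chr7:70360027-70360095, minus strand) each lie in 1 coding exon. Those of Thra (chr11:98756958-98760878), Thrb (chr14:18002563-18008571), Rora (chr9:69348152-69361741), Rxra (chr2:27741176-27741804), Rxrb (chr17:34033684-34034062) and Rxrg (chr1:167625045-167627332) lie on the plus strand and join 2 coding exons, so these extents include an intron.

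Gene counts came to 11602248 in replicate 1, 13635132 in replicate 2 and 14174384 in replicate 3. Levels are given as CPM, counts per 1e6 counts of the TMM-scaled library size, and a count of 0 allows up to 0.256, 0.222 and 0.213 CPM (3 counts), for counting error only. Pan-neuronal marker sums were 37111 to 43071 CPM. Excitatory marker sums were 5960 to 7985 CPM and GABAergic ones 1429 to 1645 CPM. Astrocyte markers summed to 126 to 207 CPM, oligodendrocyte markers to 383 to 511 CPM and microglial markers to 35.2 to 57.8 CPM. These sums are not divided by gene length, and single genes carry some of them. Snap25 was at 33510 ± 2339 CPM among pan-neuronal markers and Camk2a at 6526 ± 947 CPM among excitatory ones. Per kilobase of exon, the median excitatory marker was at 44.1 CPM and the median GABAergic marker at 50.7 CPM. The order of both lists thus depends on the measure. All 5 pan-neuronal, all 4 excitatory and all 4 GABAergic markers were detected, where 37.3% of all gene rows were. So were all 6 astrocyte, 5 of 6 oligodendrocyte and 4 of 6 microglial markers, and detection does not set neuronal markers apart. In such bulk RNA, fewer cells of a type and less RNA per cell cannot be told apart.

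Of the 10 receptors, 9 were detected, meaning at 1 CPM or more in all 3 libraries, which held for 37.3% of all gene rows. Rxrg was the exception, and it stayed below 1 CPM in replicate 1. Thrb, Thra and Rora, 3 of the 10, reached 100 CPM in every library, against 5.75% of all gene rows. Per kilobase of exon, which is needed to set genes beside each other, the median receptor lay at 5.62 CPM per kb and the median of all detected genes at 4.78 CPM per kb. Together the 10 genes summed to 825, 799 and 860 CPM in replicates 1, 2 and 3.

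**Figure D1:**
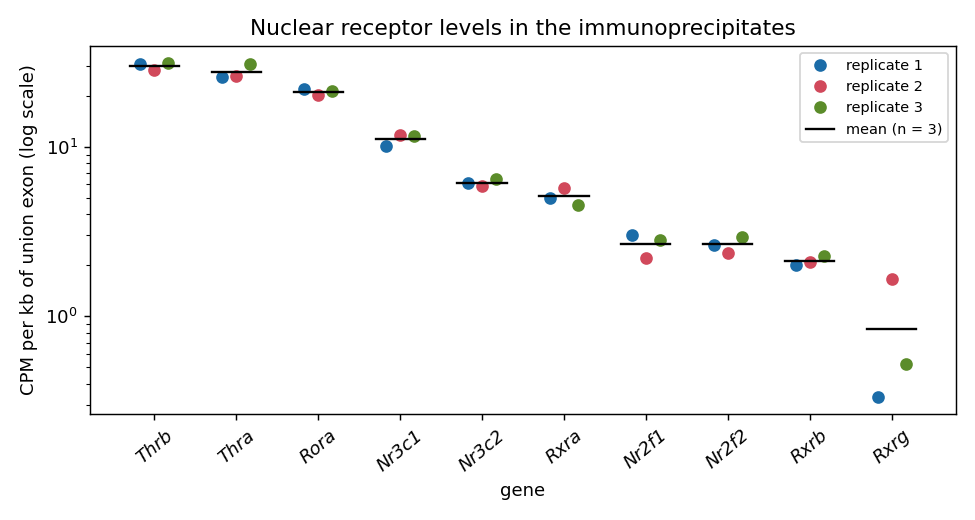
Level of each receptor gene in CPM per kilobase of union exon on a log axis, with 1 point for each of the 3 libraries and a bar for their mean. The thyroid hormone receptors and Rora lie at 20.3 CPM per kb or more in every library, and Rxrg lies lowest with its points far apart.

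The order of mean levels per kilobase was Thrb, Thra, Rora, Nr3c1, Nr3c2, Rxra, Nr2f1, Nr2f2, Rxrb and Rxrg. Of the 9 pairs of neighbours in this order, 7 had ranges over the 3 libraries that did not overlap. The 2 pairs that overlapped were Thrb with Thra and Nr2f1 with Nr2f2. The closest separated pair was Nr3c2 at 5.85 to 6.46 and Rxra at 4.55 to 5.72 CPM per kb. The order depends in part on the length used. With the longest transcript, the longest coding sequence or no length at all, Thra, Thrb and Rora exchanged the 3 highest ranks among themselves, while exons free of overlap left them as they were. With the longest coding sequence Nr3c2 had rank 7, below Rxra and Nr2f2, and Nr2f2 lay above Nr2f1 under all 4 alternatives. Nr3c1 kept rank 4, Rxrb rank 9 and Rxrg rank 10 under each of them.

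The thyroid hormone receptors were abundant and present in nearly equal amounts per length of exon. Thra (chr11:98740638-98769006, plus strand) encodes the TR alpha receptor and also a splice form that does not bind hormone, and the counts pool all forms of the gene. It was at 119, 120 and 142 CPM in replicates 1, 2 and 3, or 27.5 ± 2.74 CPM per kb (SD, n = 3). Thrb (chr14:17660261-18038090, plus strand), which encodes the TR beta forms, was at 228, 210 and 232 CPM, or 30.2 ± 1.57 CPM per kb. Their levels per kilobase stood at the 88.1 and 89.3 percentiles of detected genes, so both genes lay in the upper part of the range.

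The log2 ratio of Thra to Thrb per kilobase was -0.25, -0.12 and -0.03 in replicates 1, 2 and 3, with a mean of -0.14 ± 0.11 (SD, n = 3). Thra was thus lower in all 3 libraries, by a small amount whose size and sign rest on the length. By counts alone the log2 ratio was -0.82, and per kilobase of the longest transcript it was 0.52, which puts Thra above Thrb. Over 3 libraries an exact two-sided sign-flip test cannot go below p = 0.25, the value it gave here and for 6 of the 7 pairs compared. Thra overlaps exons of Nr1d1, a circadian repressor on the opposite strand, over 263 bases or 5.7% of its union exon. No source used here says whether strand was counted, and reads in those bases cannot be assigned. Nr1d1 was at 32.7, 38.2 and 55.4 CPM, highest in replicate 3, as Thra was, and its part in the level of Thra was not tested.

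Genes around the thyroid hormone receptors were mostly present. Of 10 genes for hormone transport and deiodination, 7 were detected. Slc7a8, an amino acid transporter that also carries thyroid hormone, was the highest per kilobase at 86.8 ± 10.5 CPM. Dio2, which makes the active hormone T3 and in brain is known mainly from glia, was at 35.9 ± 5.83 CPM, and Dio3, which inactivates it, at 1.11 ± 0.0908 CPM. Dio1 had no count in any library. Ttr, the hormone carrier made by the choroid plexus, had 569 counts in replicate 2 and 0 in replicates 1 and 3.

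Of 13 genes known to respond to thyroid hormone in brain, 10 were detected. Camk4 (459 ± 81.4 CPM), Nrgn (142 ± 22.1 CPM) and Klf9 (250 ± 20.9 CPM) were the highest per kilobase, and Stat5a was the lowest at 0.575 ± 0.142 CPM. Hr, which encodes a corepressor and is a classical target, was at 8.95 ± 1.56 CPM. The list was assembled from knowledge of hormone response, and levels in 1 untreated group do not show a response.

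Of the 10 receptors, Rora had the most counts and the smallest spread between libraries. The gene (chr9:68653786-69388246, plus strand) encodes a receptor that binds DNA as a monomer and drives transcription without added ligand, among others of clock genes. It was at 286, 265 and 280 CPM in replicates 1, 2 and 3, a coefficient of variation (CV) of 3.77% against 1.66% from counting alone. Per kilobase of its long union exon of 13071 bases, Rora was at 21.2 ± 0.799 CPM per kb, the 84.6 percentile of detected genes. Rorb, its relative known from layer 4 of sensory cortex, was at 132, 184 and 177 CPM. The log2 ratio of Rora to Rorb per kilobase was 0.87, 0.29 and 0.43, with a mean of 0.53 ± 0.31 (SD, n = 3; exact sign-flip p = 0.25). Rora was above Rorb in all 3 libraries, and the ratio was widest in replicate 1, where Rorb was lowest.

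Thalamic neurons express Rora strongly, so thalamic markers were set beside it. Their sum was 37, 52.1 and 43.4 CPM in replicates 1, 2 and 3, and the part of thalamic RNA in the level of Rora was not tested. Of 6 such markers 4 were detected, where 37.3% of all gene rows were. Slc17a6 was the highest per kilobase at 21.4 ± 2.81 CPM, and Gbx2 had no count in any library. Whether these markers are specific to thalamus in such cortical samples was not tested. Of 10 genes in the loop in which ROR activators and REV-ERB repressors compete for the same element, 9 were detected. Rora was the highest of this list per kilobase, followed by the REV-ERB gene Nr1d2 at 108 ± 5.67 CPM and the clock activator Npas2 at 73.3 ± 10.2 CPM. Arntl, a known target of the loop, was at 19.5 ± 3.53 CPM.

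The glucocorticoid receptor gene was above the mineralocorticoid receptor gene in every library. Nr3c1, whose product answers rising corticosterone during stress, was at 78.2, 90.4 and 89.5 CPM in replicates 1, 2 and 3, or 11.2 ± 0.886 CPM per kb (SD, n = 3). Nr3c2 (chr8:76899442-77245012, plus strand), whose product binds corticosterone with higher affinity and is known in brain mainly from hippocampus, was at 39.5, 37.9 and 41.8 CPM, or 6.14 ± 0.304 CPM per kb. The log2 ratio of Nr3c1 to Nr3c2 per kilobase was 0.74, 1.01 and 0.85, with a mean of 0.86 ± 0.14, which is 1.82-fold. The ranges of both genes did not overlap on either scale, and the exact sign-flip p was again the 0.25 that 3 libraries allow. The ratio kept its direction under each length used and was 1.42 on the log2 scale with coding length.

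All 12 chaperone and immunophilin genes of corticosteroid receptor complexes were detected. Hsp90ab1 (2044 ± 249 CPM), Hspa8 (1935 ± 171 CPM) and Hsp90aa1 (1711 ± 310 CPM) were the highest per kilobase, and their products serve many clients besides receptors. Fkbp5, an immunophilin that lowers receptor affinity and is itself induced by glucocorticoids, was the lowest per kilobase at 11.1, 17.3 and 15 CPM in replicates 1, 2 and 3. Of 6 genes of corticosteroid metabolism and export, H6pd and Srd5a1 were detected, a share close to the 37.3% of all gene rows, and they were at 12.2 ± 3.6 and 5.17 ± 1.09 CPM. Hsd11b1, which regenerates active corticosterone, was at 0.511, 2.51 and 2.76 CPM. Hsd11b2, which inactivates it and so reserves the mineralocorticoid receptor for aldosterone, had no count in any library.

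Of 16 genes known to be induced by glucocorticoids, 15 were detected. Dusp1 (221 ± 32.4 CPM), Klf9 and Mt2 (28.6 ± 8.73 CPM) were the highest per kilobase. Sgk1, a kinase gene induced through both corticosteroid receptors, was at 87.9 ± 8.87 CPM, the clock gene Per1 at 77.5 ± 11.9 CPM and Tsc22d3, which encodes GILZ, at 22.9 ± 1.93 CPM. Plin4 was the lowest at 0.949 ± 0.422 CPM. Dusp1 and Per1 also answer neuronal activity, so their levels are not specific to the receptor.

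The retinoid X receptors, the shared partners of thyroid hormone and retinoic acid receptors, were mostly Rxra. Rxra (chr2:27676440-27762957, plus strand) was at 27.5, 31.2 and 24.9 CPM in replicates 1, 2 and 3, or 5.1 ± 0.587 CPM per kb (SD, n = 3). Rxrb (chr17:34031812-34038399, plus strand) was at 8.01, 8.34 and 9 CPM, or 2.13 ± 0.126 CPM per kb. The log2 ratio of Rxra to Rxrb per kilobase was 1.32, 1.45 and 1.01, with a mean of 1.26 ± 0.23, which is 2.39-fold. The libraries of Rxra and Rxrb did not overlap, and the direction held under each length used.

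Rxrg had the widest spread between libraries of the 10 receptors and the fewest counts, and it was not called by the test between libraries given further on. The gene (chr1:167598384-167639623, plus strand) encodes RXR gamma, which is known in forebrain mainly from striatum. It had 9, 52 and 17 counts in replicates 1, 2 and 3. These are 0.767, 3.84 and 1.2 CPM, with exact Poisson 95% intervals of 0.351 to 1.46, 2.87 to 5.04 and 0.702 to 1.93 CPM that cover counting error only. The interval of replicate 2 did not overlap the others, and its level was 3.89 times the mean of the other libraries. The mean of 1.94 ± 1.66 CPM thus rests on replicate 2, and without that library it was 0.986 CPM.

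The ratios with Rxrg spread the most between libraries of the 7 pairs. The log2 ratio of Rxra to Rxrg per kilobase was 3.91, 1.77 and 3.12, with a mean of 2.93 ± 1.08 (7.65-fold), or 3.51 (11.4-fold) without replicate 2. That of Rxrg to Rxrb was -2.59, -0.33 and -2.11, with a mean of -1.68 ± 1.19, or -2.35 without replicate 2. Rxrg was the lowest of the 3 genes in each library. Of the summed RXR level per kilobase, Rxra made up 68.1%, 60.3% and 62% in replicates 1, 2 and 3, and Rxrb 27.3%, 22.1% and 30.9%. Rxrg made up 4.53%, 17.6% and 7.14%, a mean of 9.76% that was 5.83% without replicate 2.

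**Figure D2:**
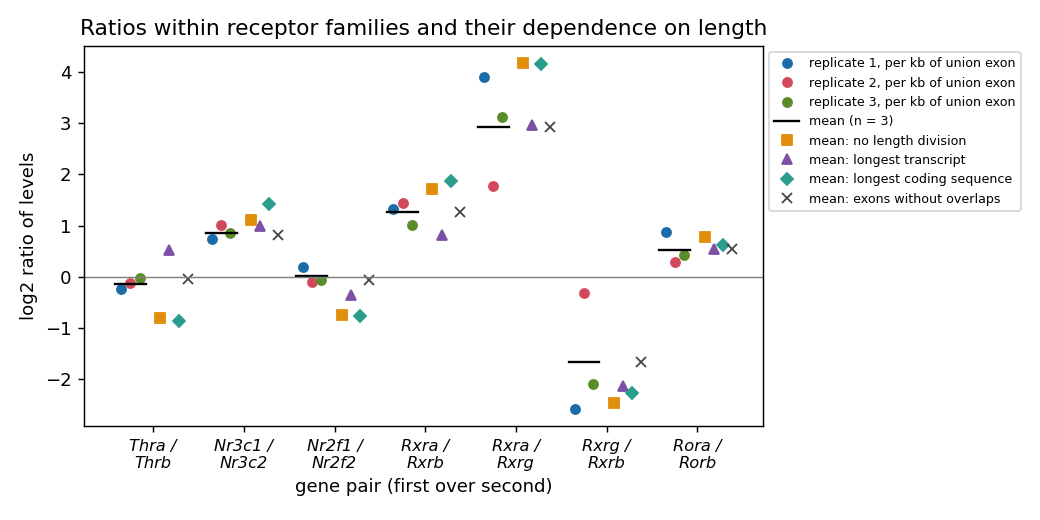
Log2 ratio of levels for 7 pairs of receptor genes, the first named over the second. Circles are the 3 libraries per kilobase of union exon with a bar for their mean, and the other symbols are means with another length or with none. The ratios of Nr3c1 to Nr3c2 and Rxra to Rxrb stay above 0 throughout, that of Thra to Thrb changes sign with the longest transcript, and those with Rxrg spread widely between libraries.

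The summed markers of striatum and thalamus were also highest in replicate 2, although single genes were divided. The summed level of 9 striatal markers was 335, 451 and 321 CPM in replicates 1, 2 and 3. Its largest terms were Penk and Pde10a (101, 137 and 94.7 CPM), both highest in replicate 2. Whether the listed genes are specific to striatum in such cortical samples was not tested. Of these 9 genes 5 were highest in replicate 2, among them Penk (93.4, 172 and 122 CPM), and 4 in replicate 1, among them Tac1 (62.7, 47.1 and 36.3 CPM), where 32.8% and 36.4% of all genes were highest. Detected were 7 of the 9, against 37.3% of all gene rows. Of the 7 tested, 5 had an unadjusted p under 0.05 in the edgeR test, against 5.72% of all genes. None was called after adjustment. Among those 5, Tac1 and Rgs9 were highest in replicate 1. The list was added after the values had been seen, so its shares beside those of all genes are no test. The thalamic sum was highest in replicate 2 too, at 52.1 CPM, with 4 of 6 genes highest there. Across the 11 marker lists, 8 had their highest sum in replicate 2, among them astrocyte, oligodendrocyte and microglial markers, and the choroid plexus transcript Ttr was counted there alone. The part of any of these in the level of Rxrg was not tested. The gene whose deviations over the libraries lay closest to those of Rxrg among 12508 was Car13, at 0.938, 4.43 and 1.35 CPM, followed by Cdk15 and Nckap1l. With 3 libraries such likeness is a description only, and 45 genes lay within a distance of 0.5 on the log2 scale.

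Per kilobase, the retinoic acid receptors and most retinoid genes lay below the median detected gene (4.78 CPM per kb). Rbp4 at 8.9 and Aldh1a2 at 7.4 CPM per kb lay above it. Rara was at 17.2 ± 1.49 CPM, Rarb at 15.2 ± 2.44 CPM and Rarg at 1.06 ± 0.271 CPM. Rarg was below 1 CPM in replicates 2 and 3 and so was not detected. Of 15 genes of retinoid synthesis, binding and breakdown, 10 were detected, with a median of 0.684 CPM per kb. The retinol carrier gene Rbp4 (11.9 ± 3.38 CPM), the synthesis enzyme Aldh1a2 (16.8 ± 3.14 CPM) and the retinal reductase Dhrs3 (11.3 ± 3.19 CPM) were the highest per kilobase, and Lrat had 1 count in all.

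The COUP-TF genes lay at the same low level per kilobase. Nr2f1 (chr13:78188973-78199757, minus strand), known for the patterning of cortical areas, was at 15.3, 11.2 and 14.5 CPM in replicates 1, 2 and 3, or 2.68 ± 0.425 CPM per kb (SD, n = 3). Nr2f2 (chr7:70351944-70366735, minus strand), known from interneurons of the caudal ganglionic eminence, was at 22.8, 20.5 and 25.4 CPM, or 2.66 ± 0.289 CPM per kb. Both genes were lowest in replicate 2, and their ranges overlapped per kilobase.

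The log2 ratio of Nr2f1 to Nr2f2 per kilobase was 0.19, -0.11 and -0.06, with a mean of 0.01 ± 0.16 and an exact sign-flip p = 1. It was -0.07 with exons free of overlap, but -0.75 by counts, -0.36 with the longest transcript and -0.77 with coding length, so the near equality depends on the divisor. The finger sequences above show how alike both genes are, and 10 windows of 50 bases were the same in both transcripts. Reads confined to those windows fit both genes. Reads tallied as not uniquely aligned, 13.8% to 19.4% in the 3 libraries, were left out of the gene counts. On the opposite strand, B130024G19Rik overlaps Nr2f2 over 643 bases (7.46%) and had 1 count in all, while A830082K12Rik overlaps Nr2f1 over 123 bases (2.42%). A830082K12Rik was at 36.7, 22.7 and 39.5 CPM, lowest in replicate 2 as Nr2f1 was, and its part in the level of Nr2f1 was not tested. Of 6 markers of caudal interneurons 4 were detected, Vip at 7.22 ± 1.97 CPM, Prox1 at 16.2 ± 2.71 CPM, Adarb2 at 17.9 ± 3.33 CPM and Htr3a at 2.48 ± 0.384 CPM. All 6 summed to 41.6, 51 and 41.4 CPM in replicates 1, 2 and 3, and the part of such cells in the level of Nr2f2 was not tested.

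The other 39 nuclear receptor genes had a median of 1.2 CPM per kb, and all of the 10 receptors but Rxrg lay above it. Of those 39 genes 22 were detected, while 6 had no count in any library. Among the 10 highest of all 49 genes per kilobase, 4 were of the set described here: Thrb, Thra, Rora and Nr3c1. The other 6 were Esrrg (72.6 CPM per kb), Nr4a2 (42.1), Nr1d2 (20), Nr4a1 (14.8), Rorb (14.8) and Nr1d1 (13.7 CPM per kb). Esrrg, an orphan receptor that works with the coactivator PGC-1alpha in energy metabolism, stood highest in all 3 libraries, and the gene of that coactivator, Ppargc1a, headed the coactivator list at 824 ± 113 CPM.

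**Figure D3:**
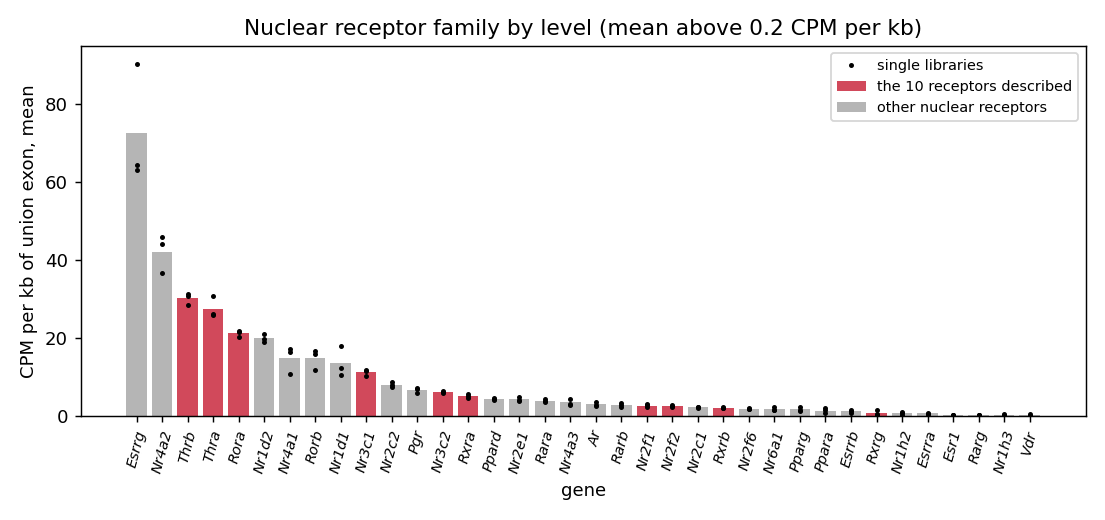
Mean level of nuclear receptor genes in CPM per kilobase of union exon, with a point for each of the 3 libraries, for genes above 0.2 CPM per kb. The set described here (red) holds ranks 3, 4, 5 and 10, below Esrrg and Nr4a2, and its other genes lie at 6.14 CPM per kb or less.

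The cofactors of these receptors were detected throughout. All 12 coactivator genes were detected, with a median of 22.3 CPM per kb. Ncoa1 (SRC-1), which binds receptors that hold hormone, was at 547 ± 38.4 CPM and Ncoa6 at 510 ± 22.7 CPM, the highest per kilobase after Ppargc1a, and Ppargc1b was the lowest at 13.3 ± 3.01 CPM. All 12 corepressor genes were detected, with a median of 8.44 CPM per kb. Ncor1, whose product binds thyroid hormone receptors without hormone, led at 563, 551 and 555 CPM in replicates 1, 2 and 3, followed per kilobase by Sin3a (86.5 ± 6.14 CPM).

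Between libraries, 8 of the 10 receptors had a smaller range and CV than the median of all genes, and Nr2f1 and Rxrg had larger ones. The range of log2 CPM over the 3 libraries had a median of 0.23 for the 10 receptors and 0.42 for the 12509 genes past the count filter. It was 0.11 to 0.45 for the receptors other than Rxrg and 2.12 for Rxrg. The corresponding median CV was 8.93% for the receptors and 15.2% for all genes. Counting error shrinks with level, and the median receptor was at 33.8 CPM, against 21.3 CPM for the median detected gene. The CV expected from counting was 1.66% for Rora and 19.6% for Rxrg. Nr2f1 was the second widest, with a CV of 15.9% against 7.48% from counting alone. Its deviations were shared almost exactly by DQ699523, Wdr70 and Ndufv3, and 7216 of 12508 genes lay within 0.5 on the log2 scale, so the likeness does not single out those genes.

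None of the 10 receptors was called in the edgeR quasi-dispersion test, which compares a gene with the trend of genes of like level. With Benjamini-Hochberg adjustment over 12509 genes, 0.0879% of all genes tested (11 genes) were called. At so small a share, 0 of 10 does not set the receptors apart from other genes. At an unadjusted p under 0.05, 1 of the 10 passed, against 5.72% of all genes, and that gene was Rxrg. In the edgeR test across all genes, Rxrg had an F of 4.48, an unadjusted value of 0.0222 and an adjusted p of 0.787. For the other 9 receptors the edgeR adjusted p was 0.997 to 0.998. DESeq2's own mark of a dispersion above the trend fell on 28 genes and on none of the 10. The 9 lists of cofactors, chaperones, hormone metabolism and response, and the circadian loop held 85 tested genes besides the 10 receptors. Of these 85, edgeR called 0 and DESeq2 marked 0, with 8, among them the receptor gene Nr1d1, at an unadjusted p under 0.05. Of 50 tested genes in the 11 marker lists, edgeR called 0 and DESeq2 marked 1, with 12 at an unadjusted p under 0.05.

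**Figure D4:**
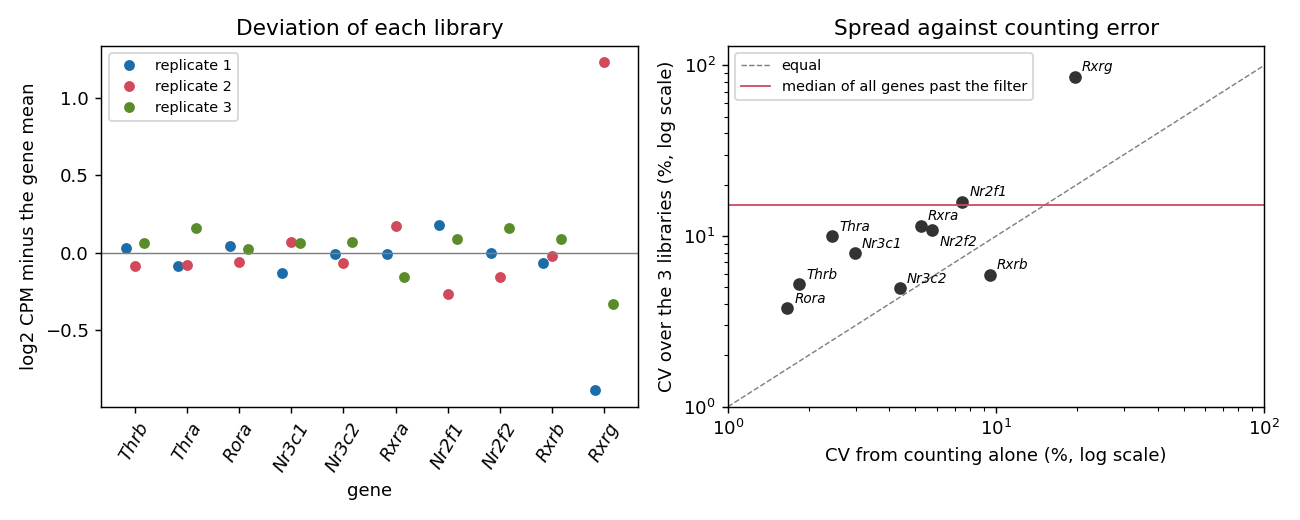
Left, log2 CPM of each library minus the mean of the gene, for the 10 receptor genes. Right, CV over the 3 libraries against the CV from counting alone, both on log axes, with the line of equality and the median of all genes past the filter (15.2%). Rxrg stands apart in both panels, with replicate 2 high, and Rora lies lowest at 3.77%.

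By replicate, 5 of the 10 receptors were highest in replicate 3, 3 in replicate 2 and 2 in replicate 1, where all genes divided as 30.8%, 32.8% and 36.4%. Thra, Thrb, Nr3c2, Nr2f2 and Rxrb were the 5 that were highest in replicate 3, which was also the library with the most counts and the highest pan-neuronal sum, whose part in these levels was not tested. Thra and Thrb together summed to 347, 330 and 374 CPM in replicates 1, 2 and 3, and Nr3c1 and Nr3c2 to 118, 128 and 131 CPM. Apart from Rxrg, the lowest and highest library of each receptor lay within 0.45 on the log2 scale, and none of these differences passed the edgeR test.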

How the data were processed

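The authors deposited raw read counts by gene symbol, with a table for each library and no normalization. The submitters' processing notes list STAR 2.0.0e, HTSeq and the mm10 build, and the sources used here give neither the counting mode and strand setting nor the annotation. Reads assigned to no gene, 29.3% to 38.1% of those tallied, were left out.

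Counts were scaled with TMM (edgeR 4.0.16, R 4.3.3). Single genes were ranked after division by the union exon length from GENCODE M21 on GRCm38. For this, 23155 rows were matched by their symbol and 729 through an older one. Sums over marker lists and over receptors are of CPM with no length division. A union exon is not the transcript expressed, so other lengths were tried. Log2 CPM used a prior count of 2. Variation between libraries was tested with glmQLFit (robust, intercept only), comparing each quasi-dispersion with the fitted trend by an F ratio, after filterByExpr (minimum count 10) and with Benjamini-Hochberg adjustment at 0.05. The test was tried first on simulated data. DESeq2 1.42.0 was the alternative. No library repeats another: chi-square per degree of freedom was 12.3 to 28.5 between pairs.

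The receptors and gene lists were chosen with earlier results of these data known, and the striatal list was added after the tables had been seen. Named from each list were the 3 highest and the lowest gene per kilobase, fixed partners and targets, and the 3 genes most like the 2 most variable receptors. Arntl, Htr3a and the genes that overlap a receptor were named beyond that rule, after their values were seen. Some genes that the rule names, and a sequence, are not reported here.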

Additional observations from a re-analysis of the deposited data

How the results depend on the processing

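With DESeq2 size factors or library totals, the level of each receptor moved by less than its SD. The same held with each replicate left out, but that was bound to be so. Leaving out 1 of 3 libraries cannot move a mean by its SD, so this part does not show stability. The mean of Rxrg was 0.986 CPM without replicate 2 against 1.94 CPM with it. Under all 3 scalings, 9 of 10 receptors were detected. No receptor was called by the between-library test under any setting run, and the lowest adjusted p was 0.782. The gene length mattered more, since levels cover all transcript forms and the form expressed here is unknown. With no length division, the log2 ratios became -0.82 (Thra to Thrb), 1.11 (Nr3c1 to Nr3c2), -0.75 (Nr2f1 to Nr2f2), 1.72 (Rxra to Rxrb) and 4.18 (Rxra to Rxrg), and the shares of Rxra and Rxrb 72.9% and 22.3%. With the longest transcript they became 0.52 (Thra to Thrb), -0.36 (Nr2f1 to Nr2f2) and 0.81 (Rxra to Rxrb). With the longest coding sequence they became -0.87 (Thra to Thrb), 1.42 (Nr3c1 to Nr3c2), -0.77 (Nr2f1 to Nr2f2), 1.88 (Rxra to Rxrb) and 4.17 (Rxra to Rxrg). The other 36 recalculated ratios moved by less than the SD between libraries, which was bound to hold where a replicate was left out. The number of genes called, 11, became 66 with no count filter, 5 without the robust prior, 28 by DESeq2's mark, and 4 to 9 with a replicate left out, 4 of them without replicate 2. Without replicate 2 or without replicate 3, Rxrg did not pass the count filter and 9 receptors were tested. No paired analysis was possible because the study has 1 group. Rxrg had the fewest counts of the 10 receptors, 9 to 52 a library, so counting error was largest for it.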
